A study of Mus musculus with 5 samples.

Results

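The Fc gamma receptors are the receptors of leukocytes for the constant part of immunoglobulin G. The genes described here are the 4 mouse receptor genes, Fcgr1, Fcgr3, Fcgr4 and Fcgr2b, and Fcer1g, which encodes the signalling chain that the activating receptors share. They were chosen by symbol, as all non-control probes whose transcript accession maps to one of the 5 names, a rule that uses no measured value. Each gene had 1 probe, and the 5 genes are among 21154 named genes and 55681 distinct probes on the array. All 5 genes passed the filter on dim probes, which left 14641 named genes for the test, and each was well above background on all 5 arrays.

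RNA came from peritoneal macrophages of 8 week old mice, measured on 1-colour Agilent arrays: 2 arrays of c-JunΔLysM mice (numbers 1 and 9, called c-Jun-deleted here) and 3 arrays of wild-type mice (numbers 5, 11 and 14). The genotype given for the c-Jun-deleted mice is cJunfl/fl LysMCre-/+, that is, floxed Jun alleles and a Cre recombinase expressed from the lysozyme M gene, which is active in macrophages and neutrophils, whereas their source names give another deleter, c-JunΔMx. All mice were of a mixed 129/C57Bl6 background, the wild-type animals were littermates, and which of the floxed or Cre alleles the wild-type mice carried is not stated in the labels. Lavage cells were plated overnight without a stated stimulus and the adherent cells were taken. The source names number the mice, and each array was taken as 1 animal. Should they not be, a p-value covers no more than the spread among these RNA samples.

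An antibody bound to a target is read by macrophages through these receptors. Activating receptors pair with the Fcer1g chain, whose cytoplasmic tail carries an immunoreceptor tyrosine-based activation motif (ITAM) that Src-family kinases phosphorylate and Syk then binds, and uptake of the coated target follows. Fcgr2b carries an inhibitory motif instead and recruits the phosphatase SHIP-1 (Inpp5d), which opposes that signal, so the ratio of activating to inhibitory receptors sets the threshold of the response. In the mouse, Fcgr1 is the high-affinity receptor, Fcgr3 binds immune complexes with low affinity, and Fcgr4 binds IgG2a and IgG2b. Fcgr2b is also the only one of the 4 receptors on B cells, and Fcer1g is used by the IgE receptor of mast cells as well.

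The sequences just before the transcription starts are shown because c-Jun acts as part of AP-1, which binds DNA, and because they show which short motifs the 5 promoters share. They are the 150 bases upstream of each RefSeq start, 5′ to 3′ on the gene's strand, from RefSeq on GRCm38.p6. They lie at chr3:96293970-96294119 (- strand), chr1:171059404-171059553 (- strand), chr1:171018776-171018925 (+ strand), chr1:170976072-170976221 (- strand) and chr1:171234350-171234499 (- strand), in the order listed. Capitals mark exact matches, on either strand, to GAGGAA (the core bound by PU.1, a myeloid transcription factor) or TTCNNNGAA (a STAT site).
Fcgr1: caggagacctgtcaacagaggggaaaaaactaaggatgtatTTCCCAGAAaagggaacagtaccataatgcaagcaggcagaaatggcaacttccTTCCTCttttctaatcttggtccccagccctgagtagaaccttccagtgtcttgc
Fcgr3: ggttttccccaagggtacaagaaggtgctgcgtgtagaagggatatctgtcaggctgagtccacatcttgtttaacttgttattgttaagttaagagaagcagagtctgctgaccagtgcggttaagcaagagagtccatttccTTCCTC
Fcgr4: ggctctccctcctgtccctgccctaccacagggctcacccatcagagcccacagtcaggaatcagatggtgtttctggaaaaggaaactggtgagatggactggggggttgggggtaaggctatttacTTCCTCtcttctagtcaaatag
Fcgr2b: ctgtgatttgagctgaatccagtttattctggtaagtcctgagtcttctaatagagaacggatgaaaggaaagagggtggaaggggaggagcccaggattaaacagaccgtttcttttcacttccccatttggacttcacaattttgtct
Fcer1g: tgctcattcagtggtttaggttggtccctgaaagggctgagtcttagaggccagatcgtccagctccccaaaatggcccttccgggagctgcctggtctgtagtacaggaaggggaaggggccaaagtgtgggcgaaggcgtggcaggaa
The search covered windows of 300 bases, from 250 before to 50 after each start, for all 5 genes (6 windows, since Fcgr3 has 2 overlapping ones). The AP-1 site TGANTCA had 0 matches in them, and 7.81% of all 32817 promoter windows held one. The related TGACGTCA had 0 matches as well, against 1.79% of all windows. GAGGAA was found once each in the windows of Fcgr1, Fcgr3 and Fcgr4, beginning 55, 6 (15 in the other Fcgr3 window) and 22 bases before the start and reading on the opposite strand in each, and not in Fcgr2b or Fcer1g. Of all windows, 28.3% held it. TTCNNNGAA was found in Fcgr1 alone, 109 bases before the start, and in 8.29% of all windows. A match is a description of these letters, and no match says nothing about sites elsewhere.

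On the single arrays, 52.1% to 59.9% of probes passed the background flag, and no non-control spot was saturated. All 10 macrophage markers listed were well above background on all 5 arrays, among them Adgre1 (F4/80) and Csf1r. Their summed signal, in units of the 75th percentile, was 993 and 1131 on c-Jun-deleted 1 and 9, against 1477, 1236 and 1706 on wild-type 5, 11 and 14. This sum was lower on both c-Jun-deleted arrays, but it includes Lyz2, which was lower without overlap (-2.39 in log2). The mean log2 of the other 9 markers was 4.82 and 4.63 on c-Jun-deleted 1 and 9. On wild-type 5, 11 and 14 it was 5.33, 4.04 and 5.35, so for that mean the groups overlapped. The markers did not move together: 6 were lower and 4 higher. Mertk (-0.55) and Csf1r (-0.40) were lower in log2 without overlap, Itgam (0.78) and Cd68 (0.23) were higher without overlap, and Timd4 (0.99) and Adgre1 (0.16) overlapped. With arrays scaled to the mean of these markers without Lyz2, a choice made after seeing the data, the log2 differences were -0.45 for Fcgr1, -0.23 for Fcgr3, -2.27 for Fcgr4, -0.06 for Fcgr2b and -0.35 for Fcer1g. Jun was at 2.76 and 2.71 in c-Jun-deleted and at 3.21, 3.75 and 3.17 in wild-type macrophages (log2 of the signal over the 75th percentile of its array, the scale used throughout). It is not known here whether its probe lies in the floxed part, and its level therefore checks no genotype. Lyz2, the lysozyme M gene itself, was at 4.46 and 8.52 on c-Jun-deleted 1 and 9, against 8.70, 8.76 and 9.18 on wild-type 5, 11 and 14. The c-Jun-deleted arrays thus differed from each other at the gene from which Cre is expressed. Whether both mice carried the same Cre alleles was not tested. Sex was not balanced: Xist was at -4.53 and the Y-linked Eif2s3y at 3.27 on wild-type 11, whereas Xist was between -0.04 and 0.74 on the other 4 arrays and Eif2s3y was not well above background there. Uty, also Y-linked, was well above background on 2 arrays. It was at -2.06 on wild-type 11, -3.97 on wild-type 14 and between -7.73 and -5.46 on the others. The B cell markers listed had a summed signal of 272 and 411 on c-Jun-deleted 1 and 9, and of 40.8 to 80.2 on the wild-type arrays. All 10 tested B cell markers were higher in c-Jun-deleted macrophages, by a median of 2.50 in log2, and all 10 lay above the wild-type range on both c-Jun-deleted arrays. Of the erythroid and platelet list, 5 genes were tested (median 4.14), and the 3 globin genes among them lay above the wild-type range on both c-Jun-deleted arrays, with log2 differences of 4.14 for Hba-a2, 4.28 for Hba-a1 and 4.87 for Hbb-bt, the last well above background on 3 of 5 arrays. Alas2 and Gp9 of that list were not well above background on any array. The summed signal of the list was 395 and 339 on the c-Jun-deleted arrays, within the 73.3 to 462 of the wild-type arrays. Most of this sum came from outside the 5 tested genes, so it does not describe the globin genes. Hba-a2, the brightest tested gene of the list, was at 3.00 and 4.12 in log2 on c-Jun-deleted 1 and 9. On wild-type 5, 11 and 14 it was at 0.04, -0.47 and -1.32.

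All 5 genes were lower in c-Jun-deleted macrophages, and Fcgr4 stood out in size: it was 5.46-fold lower, whereas the other 4 were between 1.18-fold and 1.54-fold lower. The median log2 difference of the 5 genes was -0.53, beside -0.09 over all 27938 genes tested, of which 61.4% were lower. None of the 5 passed the limma test over all genes at an adjusted p of 0.05, and neither did any other gene (0 called, 0% of genes). At an unadjusted p below 0.05 there was 1 of the 5, Fcgr4, beside 3395 genes, or 12.2%, over the whole array (6.53% lower and 5.63% higher). Of those 3395, 46.3% were higher, a share that was 61.2% with normexp, 62.0% with quantile normalization, 59.1% with arrays scaled to macrophage markers and 79.4% with arrays centred on the median of all probes. For 3 of the 5 genes, Fcgr1, Fcgr4 and Fcer1g, both c-Jun-deleted arrays lay below all 3 wild-type arrays, beside 20.2% of all genes.

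**Figure D1:**
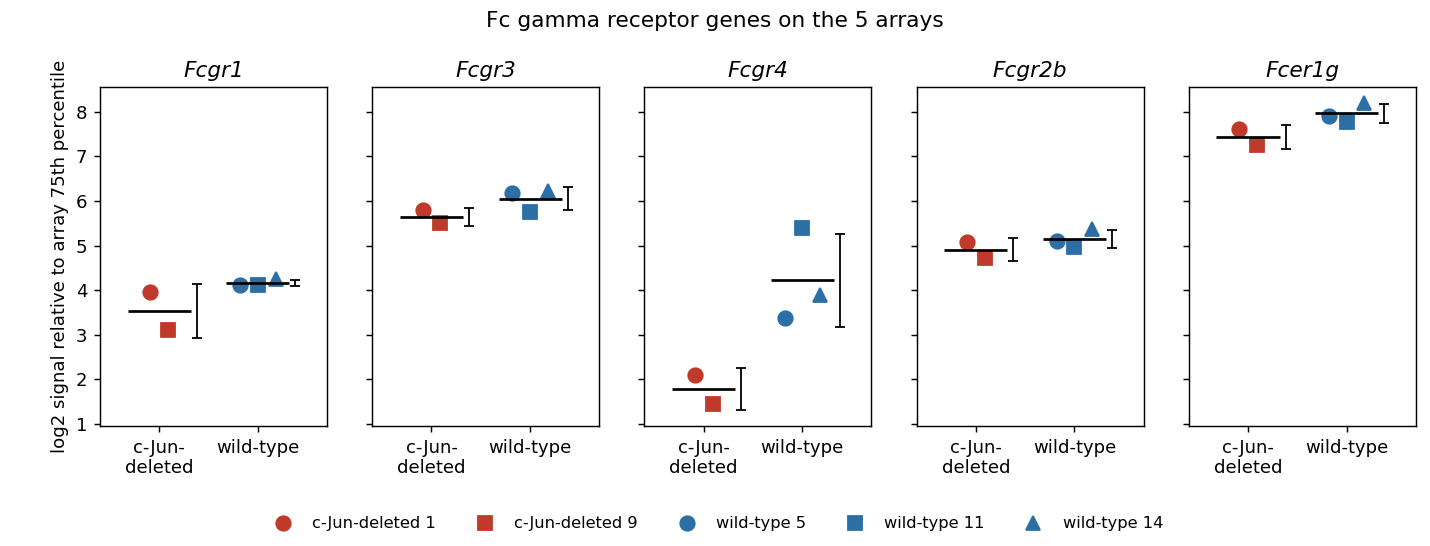
Log2 of the signal over its array's 75th percentile (y axis) of the 5 genes on each array, c-Jun-deleted (red) left of wild-type (blue); black lines are group means and the bars beside them are 1 SD (n = 2 and n = 3). Fcgr4 is at 2.10 and 1.43 on the c-Jun-deleted arrays and between 3.36 and 5.39 on the wild-type arrays, and for Fcgr3 and Fcgr2b the points of the groups overlap.

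Fcgr4, the activating receptor for IgG2a and IgG2b, had processed signals of 2560 and 1180 on c-Jun-deleted 1 and 9, against 4878, 19143 and 7161 on wild-type 5, 11 and 14. After scaling it was at 2.10 and 1.43, against 3.36, 5.39 and 3.89. The groups did not overlap, with 1.26 between the lowest wild-type and the highest c-Jun-deleted array, but the wild-type arrays themselves spanned 4.08-fold, with wild-type 11 on top. The means were 1.77 ± 0.47 (SD, n = 2) in c-Jun-deleted and 4.22 ± 1.05 (SD, n = 3) in wild-type macrophages. The log2 difference was -2.45 (SE 0.66, 95% confidence interval from -4.17 to -0.72), with an adjusted p of 0.299 by limma and an unadjusted p of 0.0151. Of all genes, 5.03% had a smaller p and 0.501% a lower difference. Fcgr4 is the single member in the authors' deposited table, a list of 1709 probes. The authors' c-Jun-deleted minus wild-type difference there is -2.45, from the same series, and is no independent result. The smallest size of a difference in that table is 1.00.

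Wild-type 11 bears on the size of the Fcgr4 difference. Without it the difference was -1.86 (adjusted p = 0.193 by limma), and without either other wild-type array it was -2.88 (without wild-type 5) or -2.61 (without wild-type 14). Within slide 1, which carried c-Jun-deleted 1 and wild-type 5, the difference was -1.26 with no test possible, and within slide 2, which carried c-Jun-deleted 9 and wild-type 11 and 14, it was -3.21. With the slide as a block it was -2.37 (adjusted p = 0.482 by limma). Wild-type 11 was the array with the highest Y-linked Eif2s3y and Uty and the lowest Xist. It also had the lowest Timd4, a marker of resident peritoneal macrophages, and the highest Ccr2, a chemokine receptor of monocytes. Timd4 was at 4.83 and 4.11 on the c-Jun-deleted arrays, against 4.31, 1.47 and 4.66 on wild-type 5, 11 and 14, and Ccr2 was at -0.69 and -0.40, against 0.58, 3.14 and -0.50.

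Over the whole list of 8 monocyte and dendritic cell markers on the array, 6 were well above background on all arrays, 1 on some and Xcr1 on none. Their summed signal was 16.8 and 13.9 on c-Jun-deleted 1 and 9, against 21.8, 38.05 and 27.2 on wild-type 5, 11 and 14. The sum was thus lower on both c-Jun-deleted arrays and highest on wild-type 11, but the brightest gene, Itgax, weighs most in it. Itgax was at 3.71 and 2.91, against 3.82, 4.64 and 4.58. Of the 7 tested genes of this list, 4 were lower and 3 higher, and 2 lay below the wild-type range. The neutrophil and eosinophil list, of interest because mouse neutrophils carry Fcgr4, summed to 18.5 and 11.85 against 16.7, 15.95 and 19.9, so those groups overlapped. S100a8, the brightest gene of that list, weighs most in its sum. S100a8 was at 3.72 and 2.55, against 3.31, 3.37 and 3.91. Of the 8 tested genes of the list, 5 were lower and 3 higher. Of these 8, 1 lay below the wild-type range, Mpo (-2.55). Of the mesothelial and stromal markers, 6 of 7 tested were lower (median -0.98) and 4 lay below the wild-type range, among them Msln (-1.63) and Wt1 (-1.47). Their summed signal was 1.38 and 1.90 on c-Jun-deleted 1 and 9, against 1.65, 4.21 and 2.26 on wild-type 5, 11 and 14, so the sums overlapped and wild-type 11 was highest here too. The part of these cells, and of sex, in the Fcgr4 result was not tested. In RNA of mixed cells, fewer cells of a type and less RNA per cell cannot be told apart.

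Fcgr1, the high-affinity receptor for monomeric IgG and a gene that interferon gamma induces, was at 3.96 and 3.11 on c-Jun-deleted 1 and 9, against 4.12, 4.12 and 4.24 on wild-type 5, 11 and 14. The wild-type arrays lay within 1.09-fold of each other, and c-Jun-deleted 9 alone was far below them, 2.08-fold under their mean, whereas c-Jun-deleted 1 was 1.15-fold under it. The log2 difference was -0.63 (SE 0.29, 95% interval from -1.37 to 0.12), with an adjusted p of 0.446 by limma. With c-Jun-deleted 9 left out it was -0.20, and with c-Jun-deleted 1 left out it was -1.05. Slide 1 alone gave -0.16 and slide 2 alone gave -1.08. The order of the arrays changed with the scaling. Before it, c-Jun-deleted 1 had the highest processed signal of all arrays, 9287 beside 7950 to 9124 in wild-type, and the highest 75th percentile as well, 596 beside 456 to 482, and c-Jun-deleted 9 had 3764.

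Fcgr3, the low-affinity activating receptor for immune complexes, was at 5.79 and 5.50 on c-Jun-deleted 1 and 9, against 6.17, 5.76 and 6.23 on wild-type 5, 11 and 14. Wild-type 11 was just below c-Jun-deleted 1, so the groups overlapped. The log2 difference was -0.41 (SE 0.22, 95% interval from -0.97 to 0.15; adjusted p = 0.489 by limma). Of the 5 genes it kept the closest values within the slides, -0.38 on slide 1 and -0.495 on slide 2, and it was -0.26 without c-Jun-deleted 9. The T and NK cell markers were summed as well, since NK cells carry Fcgr3 and Fcer1g. They summed to 22.3 and 28.9 against 12.7, 38.2 and 12.55, so these groups overlapped too.

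Fcgr2b, the inhibitory receptor, was at 5.09 and 4.73 on c-Jun-deleted 1 and 9, against 5.11, 4.97 and 5.37 on wild-type 5, 11 and 14. The groups overlapped and the difference was the smallest of the 5, -0.24 (SE 0.20, 95% interval from -0.77 to 0.29; adjusted p = 0.641 by limma). Its probe was spotted 10 times on each array, which gives the error between spots of 1 array, a part of the technical error that leaves out labelling and hybridisation. The spots of 1 array had an SD between 0.06 and 0.11 in log2, and the arrays of a group had an SD of 0.25 (c-Jun-deleted) and 0.20 (wild-type). The difference was -0.03 within slide 1 and -0.44 within slide 2, -0.06 with c-Jun-deleted 9 left out, -0.13 with wild-type 14 left out and -0.42 with c-Jun-deleted 1 left out. The B cell markers, whose cells carry Fcgr2b, were higher on both c-Jun-deleted arrays, as given above, and their part in the Fcgr2b level was not tested. Fcgr2b and Fcgr3 have similar sequences, and whether either probe also binds the other transcript was not tested.

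**Figure D2:**
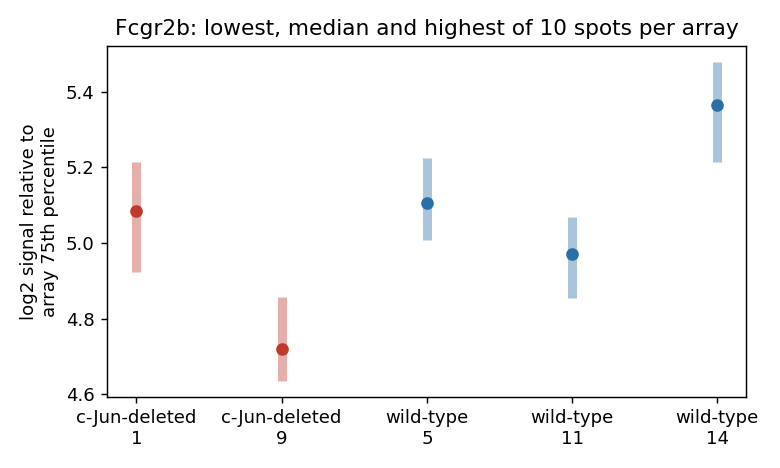
Fcgr2b signal on each array, in log2 relative to the array's 75th percentile (y axis); points are the median of the 10 spots and bars run from the lowest to the highest spot, c-Jun-deleted in red and wild-type in blue. The median runs from 4.72 on c-Jun-deleted 9 to 5.36 on wild-type 14, and the bar of c-Jun-deleted 1 overlaps those of wild-type 5 and 11.

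Fcer1g is the signalling chain of the 3 activating receptors. It was at 7.62 and 7.25 on c-Jun-deleted 1 and 9, against 7.92, 7.77 and 8.21 on wild-type 5, 11 and 14. Both c-Jun-deleted arrays lay below the wild-type range, with 0.15 between the groups, and the difference was -0.53 (SE 0.21, 95% interval from -1.08 to 0.02; adjusted p = 0.419 by limma). It was -0.30 within slide 1, -0.74 within slide 2 and -0.35 without c-Jun-deleted 9. All Fcer1g spots were so bright that their signal came from the weaker of 2 scans and was scaled up, and none was saturated. For other members this differed between arrays. The Fcgr4 spot was scaled up on wild-type 11 only, and the Fcgr3 spot on all arrays but c-Jun-deleted 9. Of the 10 Fcgr2b spots, 5 were scaled up on c-Jun-deleted 1, 2 on wild-type 5 and 5 on wild-type 14. Its effect on the differences was not tested. Mast cell markers, whose cells also use the chain, summed to 99.5 and 93.4, against 122.5, 68.5 and 41.7, so those groups overlapped. All 8 tested ones had a higher mean in c-Jun-deleted macrophages (median 0.50), the opposite direction to Fcer1g. Tyrobp, the other ITAM chain of macrophages, was at 8.24 and 8.26, against 8.54, 8.04 and 8.46, which overlapped, and its difference was -0.09 (SE 0.20, adjusted p = 0.875 by limma). No test of the difference between these 2 chains was made.

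The order of the arrays was partly shared within the family. C-Jun-deleted 9 had the lowest value of all 5 arrays for all 5 genes, and wild-type 14 the highest for 4 of them, the exception being Fcgr4. The share of all genes with such an order was not computed. Centred on each gene's mean, the patterns of Fcer1g and Fcgr3 differed by a root mean square of 0.11 in log2 over the 5 arrays and those of Fcgr2b and Fcgr3 by 0.12, whereas Fcgr4 differed from each of the other members by between 1.12 and 1.32. Fcgr1 differed from Fcer1g, Fcgr3 and Fcgr2b by between 0.19 and 0.26. Many other genes were closer still: Fcgr3 ranked 253 in closeness to Fcer1g and 1414 in closeness to Fcgr2b, and Fcgr1 ranked 1356 for Fcer1g. Among 12841 other named genes well above background on all arrays, the 3 nearest to Fcer1g (Trps1, Ufsp2 and Rab5c) lay at 0.02 to 0.03, and those nearest to Fcgr3 (Fam110a, Dglucy and Srprb) at 0.02 to 0.03. The nearest to Fcgr2b were Ugp2, Med7 and Clock, at 0.01 to 0.02. Fcgr1 lay nearest to Arrdc4 (0.05), C1rb (0.06) and Oas2 (0.07), the last an interferon-induced antiviral enzyme. Fcgr4 had no neighbour as close. Its nearest were Vcam1, an adhesion molecule (0.21), Anxa8 (0.32) and Nos2, the inducible nitric oxide synthase (0.32). Nos2 was at -2.14 and -1.97 on the c-Jun-deleted arrays, against -0.77, 1.47 and -0.40 on wild-type 5, 11 and 14, the same order of the wild-type arrays as for Fcgr4. These distances over 5 arrays are descriptions. They are not scaled by the spread of a gene, so genes that vary little lie near each other. A gene that varies much, as Fcgr4 did, tends to lie far from others, whatever its pattern.

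**Figure D3:**
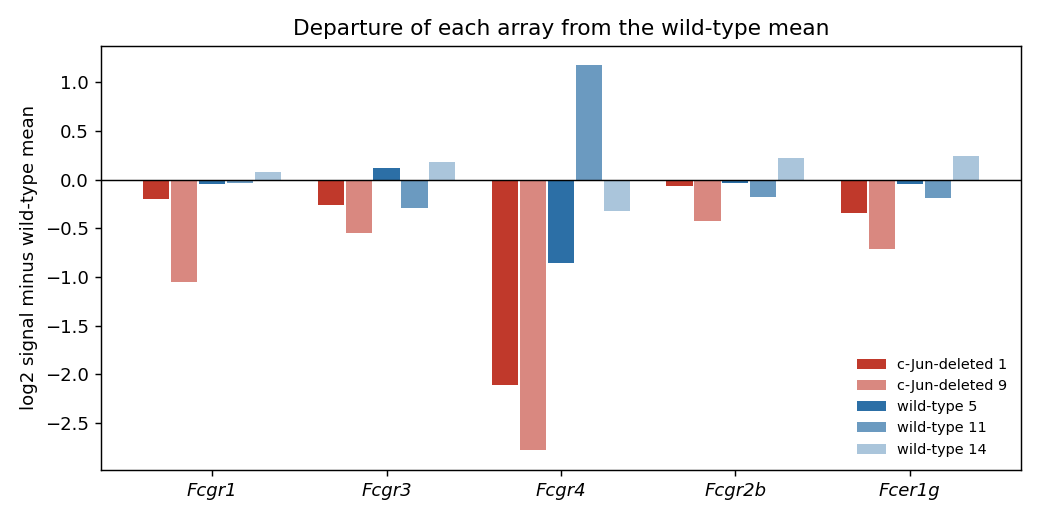
Log2 signal of each array minus the wild-type mean of the gene (y axis), for the 5 genes, with c-Jun-deleted arrays in red and wild-type arrays in blue. For Fcgr4 the c-Jun-deleted arrays stand at -2.11 and -2.78 and wild-type 11 at 1.18, whereas the largest departure among the other 4 genes is -1.05, for Fcgr1 on c-Jun-deleted 9. Bars start at 0, and shades mark the arrays of a group.

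The balance of the inhibitory and activating receptors was compared within arrays, which removes any scaling between them. Relative to the wild-type mean, Fcgr2b minus the mean of Fcgr1, Fcgr3 and Fcgr4 was at 0.795 and 1.04 on c-Jun-deleted 1 and 9, against 0.22, -0.46 and 0.24 on wild-type 5, 11 and 14. The mean difference was 0.92 in log2 towards Fcgr2b, and the 2 c-Jun-deleted arrays lay above all 3 wild-type arrays. B cells carry Fcgr2b alone of these receptors, and their markers were higher on both c-Jun-deleted arrays, as given above. The part of B cell RNA in this balance was not tested. An exact permutation test over the 10 assignments of arrays gave a two-sided p of 0.1, the smallest that 2 against 3 arrays can give. The balance was smaller without Fcgr4, a choice made after the values were seen: with Fcgr1 and Fcgr3 alone the values were 0.17 and 0.38, against -0.07, -0.01 and 0.09, with a mean difference of 0.27 and again an exact p of 0.1.

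The activating receptors were also set against their shared chain. Fcgr3 minus Fcer1g, relative to the wild-type mean, was at 0.08 and 0.16 on the c-Jun-deleted arrays, against 0.16, -0.10 and -0.06 on wild-type 5, 11 and 14, so the groups overlapped. Fcgr1 minus Fcer1g was at 0.15 and -0.34, against 0.0028, 0.15 and -0.16, which overlapped as well. Fcgr4 minus Fcer1g was at -1.77 and -2.07, against -0.81, 1.37 and -0.56, and the groups did not overlap.

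Fcgr2b, Fcgr4, Fcgr3 and Fcer1g lie near each other on mouse chromosome 1, in this order, and Fcgr1 lies on chromosome 3. No other tested gene lies between Fcgr2b and Fcgr3, so the gene with the largest difference, Fcgr4, stands between a pair with small ones (-0.24 and -0.41). On the other side of Fcgr2b come Fcrla and Fcrlb, Fc receptor-like genes. Fcrla, a B cell gene, was at 4.28 and 4.77, against 2.28, 1.63 and 1.37, a difference of 2.76 (SE 0.34; adjusted p = 0.212 by limma), and the difference of Fcrlb was -0.69 (SE 0.26), which did not pass either. Between Fcgr3 and Fcer1g there were 6 other tested genes, 3 higher and 3 lower, from Sdhc (-0.35) to Pcp4l1 (0.73).

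The rest of the pathway was described from lists of its genes, by role. Over all tested genes, 33.5% had groups that did not overlap, 12.2% an unadjusted p below 0.05 and none an adjusted p below 0.05 in the limma fit. No gene of any list passed the adjusted threshold. The share without overlap was 43.8% for the activating, 58.8% for the inhibitory and 31.0% for the uptake list. It was 35.3% for the other ITAM list and 76.9% for the other Fc receptors and relatives. These shares were not tested. Among 32 activating kinases, adaptors and enzymes, 15 were higher and 17 lower (median -0.06), and 6 had an unadjusted p below 0.05. Syk, the kinase that binds the ITAM, was at 6.10 and 6.13, against 5.85, 5.83 and 5.90, a difference of 0.26 (SE 0.13; adjusted p = 0.481 by limma). The 3 of smallest p were Blnk, an adaptor best known from B cells (1.26), Vav3, an exchange factor for Rac (-0.53), and the kinase gene Src (-0.88), with adjusted p of 0.222, 0.280 and 0.299 by limma. The log2 differences of Fgr and Lyn, kinases of the Src family, were -0.42 and 0.16.

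On the inhibitory side 17 genes were tested, 6 higher and 11 lower (median -0.10), and 4 had an unadjusted p below 0.05, all of them higher. Cd22 (1.95) and Cd72 (1.21), inhibitory receptors of B cells, and Cblb, a ubiquitin ligase (0.73), had the smallest p, with adjusted p between 0.227 and 0.322 by limma. Cd22 is also on the B cell marker list, whose levels are given above. Inpp5d, the SHIP-1 phosphatase that Fcgr2b recruits, was at 5.25 and 5.13, against 5.11, 4.77 and 5.16, and the groups overlapped (0.18, SE 0.18; adjusted p = 0.701 by limma). Ptpn6, which encodes SHP-1, differed by 0.03 (SE 0.16; adjusted p = 0.950 by limma). The directions of the activating and inhibitory medians depended on the scaling: with normexp they were 0.01 and 0.08, and with quantile normalization 0.07 and 0.04. Single arrays moved them as well: the inhibitory median was 0.02 without c-Jun-deleted 9, -0.32 without c-Jun-deleted 1, -0.18 without wild-type 5 and -0.05 without wild-type 11. It was 0.13 within slide 1 and -0.38 within slide 2. The activating median was -0.15 without c-Jun-deleted 1, -0.12 without wild-type 11 and -0.09 without wild-type 5.

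Of 29 genes of the actin and uptake machinery, 25 were lower and 4 higher, with a median of -0.24, beside 61.4% lower and a median of -0.09 over all genes. This median was -0.08 with normexp or quantile normalization and -0.02 with each array centred on the median of all its probes. It was -0.06 without c-Jun-deleted 9, -0.13 without wild-type 14 and -0.04 within slide 1. Of its genes, 9 had groups that did not overlap (31.0%, beside 33.5% of all genes) and 3 had an unadjusted p below 0.05: Pak1, a kinase downstream of Rac (-0.67), Rhog, a small GTPase (-0.46), and Coro1a, an actin-binding protein abundant in lymphocytes (0.67), with adjusted p of 0.340, 0.404 and 0.411. The differences of Rac1 and Rac2 were -0.39 and 0.32. Other receptors and adaptors of the ITAM kind gave 12 lower and 5 higher of 17 genes (median -0.24, and -0.09 with normexp or quantile normalization). Leaving out 1 array gave this median values from -0.38 (wild-type 11) to -0.10 (c-Jun-deleted 9), with -0.12 without wild-type 5 and -0.15 without wild-type 14. The 3 of smallest p were Trem1, an activating receptor (-0.89), Oscar (0.39) and Trem3 (-1.43, well above background on 4 of 5 arrays), with adjusted p of 0.357, 0.373 and 0.422. Clec4e (Mincle), which signals through Fcer1g, was at 7.16 and 6.54, against 7.36, 7.29 and 7.87, a difference of -0.65 (SE 0.29; adjusted p = 0.440 by limma).

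Of 13 other Fc receptors and relatives tested, 7 were higher and 6 lower (median 0.11), and 6 had an unadjusted p below 0.05. The median was 0.22 with normexp, 0.24 with quantile normalization, 0.31 with no filter on dim probes, 0.33 with centring on all probes, 0.37 with the mean over probes and 0.06 without wild-type 5. The 3 of smallest p were Fcrla, given above, Fcmr and Fcgrt. Fcmr, the IgM receptor of B cells and also on the B cell marker list, was at 5.20 and 6.08, against 2.97, 3.61 and 2.62 (2.58, SE 0.42; adjusted p = 0.219 by limma). Fcgrt, the neonatal Fc receptor, which recycles IgG inside cells, was at 2.52 and 2.77, against 3.74, 3.34 and 3.46, without overlap (-0.87, SE 0.19; adjusted p = 0.251 by limma). Its partner chain B2m was at 7.94 and 7.91, against 8.09, 8.39 and 8.29, also without overlap (-0.33, SE 0.16; adjusted p = 0.456 by limma). Fcer1a, the IgE-binding chain that pairs with Fcer1g in mast cells, was at 2.77 and 2.42, against 2.98, 1.85 and 1.08, and the groups overlapped.

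**Figure D4:**
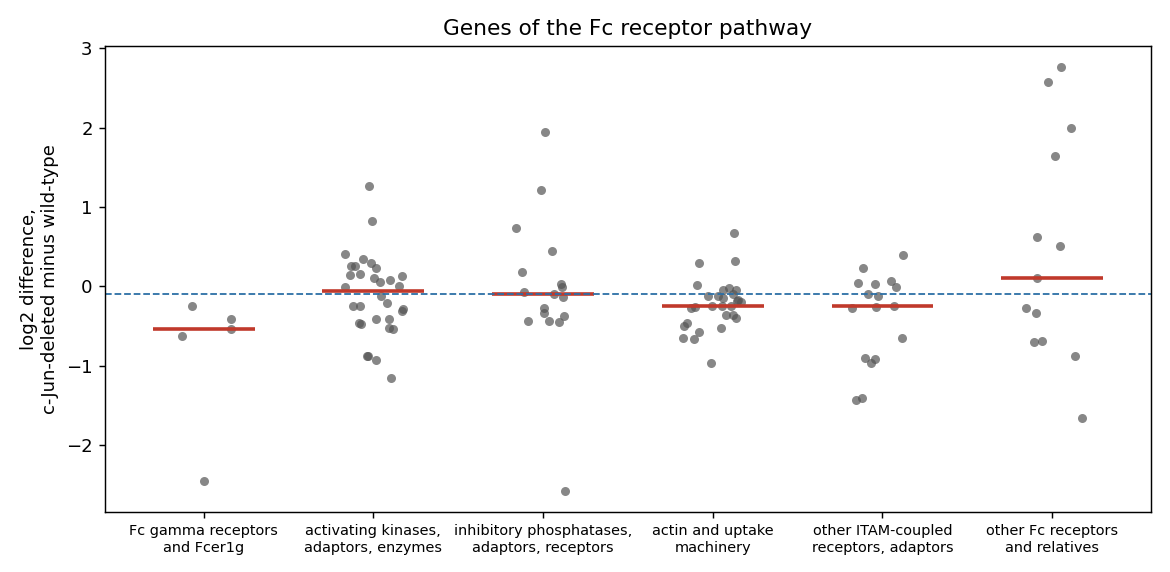
Log2 differences (y axis, c-Jun-deleted minus wild-type) of the tested genes of each list; each point is a gene, red lines are list medians and the dashed blue line is the median of all genes tested (-0.09). The medians are -0.53 for the 5 genes described here, -0.06, -0.10, -0.24 and -0.24 for the signalling, inhibitory, uptake and other ITAM lists, and 0.11 for the relatives, none of whose genes passed the adjusted threshold.

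The direction of each of the 5 genes was the same under all alternatives run, including each array left out, but the size was not. Over these, the Fcgr4 difference ran from -3.21 to -1.26, that of Fcgr1 from -1.08 to -0.16, that of Fcer1g from -0.74 to -0.24, that of Fcgr3 from -0.55 to -0.19 and that of Fcgr2b from -0.44 to -0.02. The lowest adjusted p by limma in any of them was 0.128, for Fcgr4 with arrays scaled to macrophage markers.

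**Figure D5:**
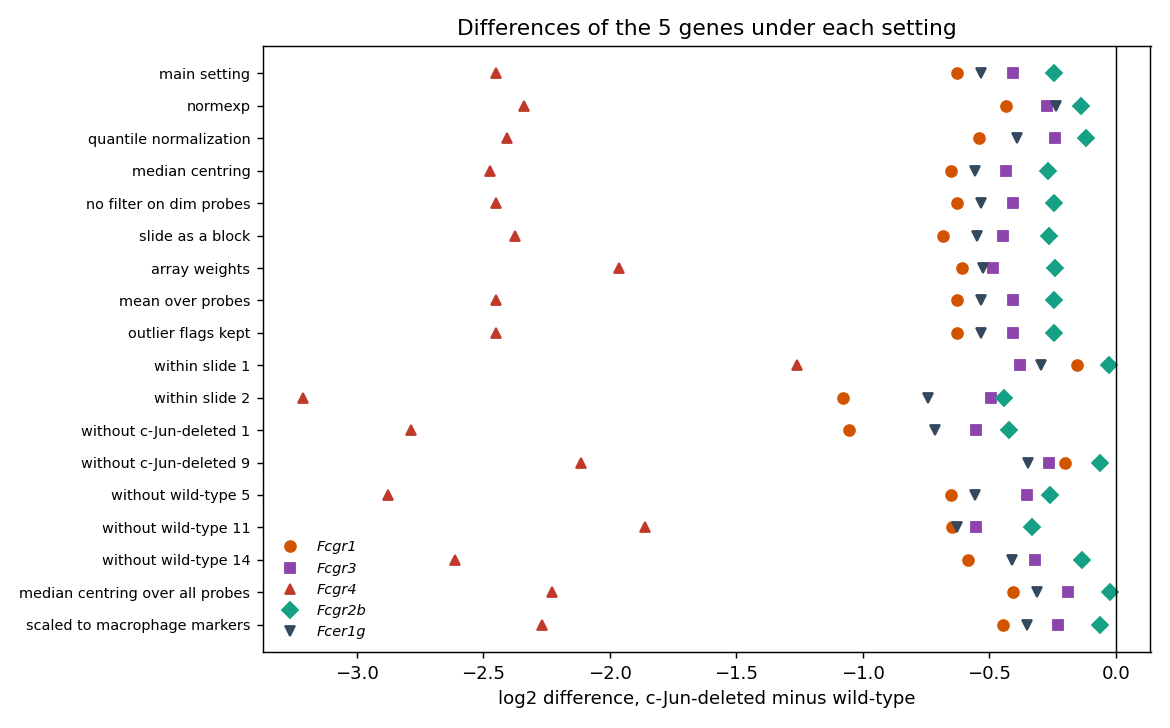
Log2 difference (x axis, c-Jun-deleted minus wild-type) of each of the 5 genes, one symbol per gene, under each processing setting (rows, the main setting on top). All points lie below 0, with Fcgr4 between -3.21 and -1.26 and Fcgr2b between -0.44 and -0.02.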

How the data were processed

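Each array gave spot intensities that the authors deposited as scanner files. Per the file headers, they were written by Feature Extraction 11.5.1.1 with background subtracted, the brightest spots read in a weaker scan, and no scaling between arrays, on a design of mm9. The deposited 0 or 1 flags, an other kind of value, served for filtering. The deposited log2 table holds 1 value per group, not single arrays, shifted by the 75th percentile according to its name; medians of its c-Jun-deleted and wild-type columns are 1.19 and 0.54, its baseline is unknown, and 1 of the 4 wild-type arrays listed in its header is not analysed here. Its difference lay within 0.001 of the one computed here for 1692 of 1709 probes.

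The processed signal was divided by each array's 75th percentile over non-control spots and log2 was taken. Control and outlier spots were left out, spots of a probe averaged, and probes kept when well above background on at least 2 of 5 arrays. Accessions gave symbols for 28026 probes, from a GRCm38.p6 table used only for names and gene order. A gene was its brightest probe, and unnamed probes entered as they were. The 2 groups were set against each other over 27938 genes by limma 3.58.1 (R 4.3.3) with lmFit, eBayes, two-sided p-values and no covariate, with Benjamini-Hochberg adjustment and a threshold of 0.05; the fit was tested on simulated data. The files hold 2 slides, each with its own scan time, and both groups lie on both. The number of arrays limits the precision. The members and lists were chosen with earlier results of these data known. Named genes are the 5 members, the 3 genes of smallest p in each list, the 3 nearest to each member, and further list, marker or neighbouring genes named for their role after their values were seen. The files hold no mean spot signal, so normexp (offset 50) used the median spot signal, followed by quantile normalization. Other alternatives were quantile normalization, median centring, no filter, flagged spots kept, the mean over probes, array weights, the slide as a block, each slide alone and each array left out.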

Additional observations from a re-analysis of the deposited data

How the results depend on the processing

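The 5 genes kept their direction and stayed above an adjusted p of 0.05 under every alternative that allowed a test. Within slide 1, which holds 1 array of each group and allows no test, the difference was -0.16 for Fcgr1, -0.0256 for Fcgr2b, -1.26 for Fcgr4 and -0.30 for Fcer1g. With 1 array left out, the differences ran from -1.05 to -0.20 for Fcgr1, from -0.42 to -0.06 for Fcgr2b, from -0.55 to -0.26 for Fcgr3, from -2.88 to -1.86 for Fcgr4 and from -0.72 to -0.35 for Fcer1g; the extremes near 0 came without c-Jun-deleted 9, except for Fcgr4, where wild-type 11 was left out. A lone array is assumed there to vary like the other group. The receptor balance of 0.92 was 0.27 without Fcgr4. It was 0.57 within slide 1 and 1.15 within slide 2, and ran from 0.69 to 1.04 with 1 array left out.

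No gene passed the adjusted threshold, but 1 did with array weights (Nkx6-3, named after its value was seen), 233 with arrays centred on the median of all probes and 305 with arrays scaled to macrophage markers, both scalings chosen after seeing the data and neither calling any of the 5 genes. The macrophage marker mean itself spanned 1.31 between wild-type arrays. Against 3395 genes at an unadjusted p below 0.05 there were 1836 within slide 2, 1688 without c-Jun-deleted 9 and 1627 scaled to macrophage markers. Centring on all probes moved the median of all genes to 0.13. No paired analysis was possible because the titles' numbers of the 2 groups (1 and 9, and 5, 11 and 14) share none; the slide block changed no call.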
